A study of Mus musculus with 18 samples.

Results

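Cells sorted as hematopoietic progenitor and stem cells (HPSC) were compared with mesenchymal cells (MC) from the same mouse tissue, the aorta-gonad-mesonephros region (AGM) at embryonic day 11, over all cultures of the study. HPSC were the cells positive for CD31 and for Kit, and MC were the cells negative for both. All 6 libraries whose titles name the HPSC gate were set against all 6 that name the MC gate, 12 of the 18 RNA-seq libraries of the series. Each population was taken from AGM that had just been dissected (fresh), from AGM kept as explants in medium with BMP and Hedgehog (explant), and from such explants with cyclopamine added, a blocker of the Hedgehog transducer Smoothened (cyclopamine). Every sort was divided once more by BRE-GFP, a transgene of this C57BL6 strain in which a BMP response element drives green fluorescent protein, into positive and negative cells. All embryos carried the reporter, so HPSC and MC share it, and cultures of both populations shared the same additions. Each combination of population, culture and fraction had 1 library, and a pair of HPSC and MC libraries of the same culture and fraction is called a block below, 6 in all. The remaining 6 libraries held endothelial-enriched cells (EC, CD31 positive and Kit negative) and entered the fit to add to the estimate of spread.

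The AGM is the site in the embryo where hematopoietic stem cells arise, from endothelium in the wall of the dorsal aorta. CD31, the product of Pecam1, sits on endothelium and on the blood cells that emerge from it, and Kit is the receptor for stem cell factor on progenitors, mast cells and germ cells. The CD31- Kit- fraction is defined only by what it lacks, and around the aorta it can hold mesenchyme, smooth muscle precursors, sympathetic neuroblasts of the neural crest, and cells of the somites, gonad, adrenal and mesonephros. Mesenchyme near the aorta is a known source of signals for emerging blood cells, among them BMP4, Kit ligand and the chemokine Cxcl12.

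Counts assigned to genes numbered 3041249 to 15760271 (median 10673415) in the HPSC libraries and 4547062 to 21972063 (median 15595532) in the MC libraries. The HPSC cyclopamine negative library had the fewest counts and the fewest genes with a count among HPSC (10297), and the MC fresh positive library the fewest of both among MC (12028 genes with a count). The share of reads outside annotated genes was 19.5 to 43.3% (median 30.4%) in HPSC and 31.2 to 46.8% (median 37.5%) in MC. Spearman correlations of log2 levels across genes, which are no independent replicates, had a median of 0.875 between pairs of HPSC libraries, 0.957 between pairs of MC libraries and 0.852 between HPSC and MC libraries. Nothing in the labels says that libraries came from separate embryos or sorts, so p-values measure the spread between these libraries, part of which may be technical. In sorted bulk RNA, fewer cells of a type and less RNA per cell cannot be told apart.

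Of 16231 genes tested with edgeR's quasi-likelihood test, 665 were higher in HPSC (4.1%) and 950 were lower (5.85%), 9.95% in all, at a Benjamini-Hochberg adjusted p under 0.05, and 4080 had an unadjusted p under 0.05. A gene called here passed that threshold. Levels are given as CPM, counts scaled by the TMM-adjusted library total, and a fold change or log2 ratio is HPSC over MC on the log2 scale from the fit with the 6 blocks. The median fold change over all genes tested was -0.38 on that scale, and -0.09 with a filter of at least 10 CPM in 3 libraries. No call or fold change was corrected for this shift. Of the called genes, 533 of the 665 higher and 704 of the 950 lower ones moved the same way in all 6 blocks. Among the 950 lower genes, 148 had at most 3 counts over the HPSC libraries, 58 of them 0. Among the 665 higher genes, 11 had at most 3 counts over the MC libraries, 1 of them 0. The lowest HPSC library lay above the highest MC library for 487 genes (3% of those tested), and the highest HPSC library lay below the lowest MC library for 788 (4.85%). When the share outside annotated genes entered the fit as a covariate (below, with the covariate), 354 genes were called higher and 164 lower. Which direction held more calls turned with the processing. Higher genes were the more numerous with the covariate, with a filter of at least 10 CPM in 3 libraries (681 higher and 652 lower), with no block term (778 and 729), without HPSC cyclopamine positive (454 and 448), without MC cyclopamine negative (634 and 595), and within each culture and each BRE-GFP fraction. The count of lower genes also fell with single libraries left out, to 448 without HPSC cyclopamine positive, 521 without HPSC explant negative, 542 without MC fresh negative, 544 without MC explant negative, 595 without MC cyclopamine negative and 586 without MC cyclopamine positive. Counts without both thin libraries, HPSC cyclopamine negative and MC fresh positive, come from an alternative chosen after seeing the data. Among the genes named singly for this comparison, 112 lost their call with the covariate and 50 without both thin libraries.

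**Figure D1:**
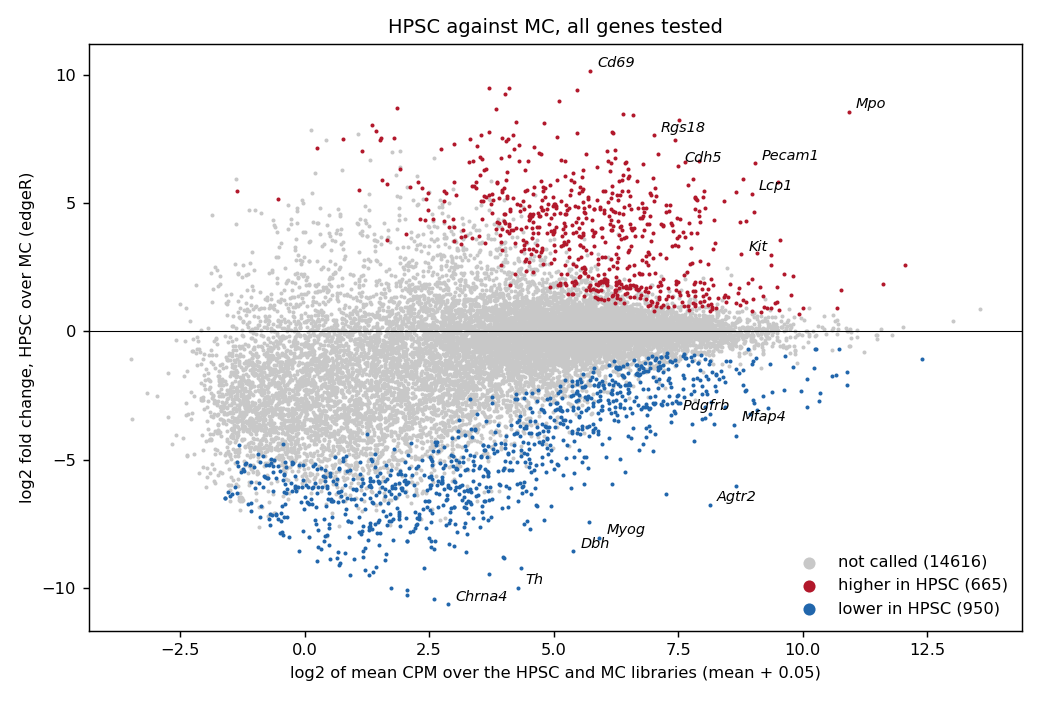
Log2 fold change (HPSC over MC, edgeR) against the log2 of the mean CPM over the 12 libraries, 1 point per gene tested. Red points are the 665 genes called higher in HPSC, blue points the 950 called lower, and grey points were not called. The lower genes reach down to low mean levels, while most higher genes lie at middle and high mean levels.

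Promoter sequences are shown for 4 called genes, because blood and muscle genes are textbook targets of different transcription factors. The first 3 belong to genes called higher in HPSC, the granulocyte enzymes Mpo (myeloperoxidase) and Elane (neutrophil elastase) and the hematopoietic adaptor Samsn1, and the last to Acta1, the skeletal muscle actin, called lower. Among the genes considered for printing, these 4 had the lowest p with the motif in the window, 3 among the higher and 1 among the lower. Not every called gene was considered, so a gene of lower p could also hold the motif. The windows are the 250 bases before the start given by RefSeq on GRCm38.p6, on the gene's strand. Gene coordinates elsewhere in the text are those of GENCODE, whose outermost start differs for all 4. In Mpo, Elane and Samsn1 the RefSeq start lies inside the GENCODE gene, so that part or all of the window does too. Capitals mark GAGGAAGT or its reverse complement ACTTCCTC in the first 3, the core that the ETS factor PU.1 prefers, and CAGCTG in Acta1, the E-box of myogenic factors such as Myog.
Mpo, chr11:87793534-87793783, plus strand: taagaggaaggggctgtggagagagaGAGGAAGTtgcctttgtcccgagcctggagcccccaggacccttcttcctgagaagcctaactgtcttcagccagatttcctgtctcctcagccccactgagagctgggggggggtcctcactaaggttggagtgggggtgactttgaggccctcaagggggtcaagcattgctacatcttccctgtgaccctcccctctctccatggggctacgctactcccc
Elane, chr10:79886062-79886311, plus strand: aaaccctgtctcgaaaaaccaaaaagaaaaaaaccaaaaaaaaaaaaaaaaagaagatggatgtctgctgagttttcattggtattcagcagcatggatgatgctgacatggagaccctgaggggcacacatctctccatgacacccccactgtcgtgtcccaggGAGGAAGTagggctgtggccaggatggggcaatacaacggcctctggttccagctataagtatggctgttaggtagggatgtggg
Samsn1, chr16:75909267-75909516, minus strand: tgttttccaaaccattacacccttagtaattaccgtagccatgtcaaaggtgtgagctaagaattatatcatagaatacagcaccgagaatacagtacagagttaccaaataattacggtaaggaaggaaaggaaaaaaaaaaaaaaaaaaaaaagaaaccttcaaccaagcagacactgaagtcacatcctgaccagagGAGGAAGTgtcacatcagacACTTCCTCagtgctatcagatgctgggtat
Acta1, chr8:123894776-123895025, minus strand: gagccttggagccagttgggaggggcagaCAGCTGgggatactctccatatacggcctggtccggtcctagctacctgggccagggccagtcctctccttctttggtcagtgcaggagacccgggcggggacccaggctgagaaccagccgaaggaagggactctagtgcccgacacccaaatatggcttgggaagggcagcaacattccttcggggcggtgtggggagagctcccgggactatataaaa
The motif lay 224 bases before the RefSeq start in Mpo, 85 in Elane, 50 and 30 in Samsn1, and 221 in Acta1.

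Across the genes tested, 11291 had a promoter in the table by symbol. GAGGAAGT, on either strand, was in 6.3% of the promoters of 476 genes called higher, 1.12% of those of 626 genes called lower and 2.25% of all 11291. TGTGGTT, the letters that RUNX factors bind, was in 5.67% of the higher, 1.76% of the lower and 3.33% of all. AGATAA, bound by GATA factors, was in 9.87% of the higher, 6.39% of the lower and 6.8% of all. CAGCTG was in 14.3% of the higher, 17.3% of the lower and 12.5% of all promoters, and GGAATG, bound by TEAD factors, in 9.45%, 14.9% and 11.1%, in the same order. The GC box GGGCGG was in 46% of the higher and 51% of the lower promoters, against 54.6% of all. All motifs were searched on both strands, none of the searched sequences contains another, and a match describes the letters only. The shares were not tested against each other.

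The genes behind the gate differed as the sort would have it, which checks the labels and is no finding. Pecam1 stood at 212 to 2682 CPM (median 735) in HPSC and at 2.996 to 11.5 CPM (median 6.41) in MC, and Kit stood at 449.9 to 1135 CPM (median 753) in HPSC and at 20.9 to 187 CPM (median 90.4) in MC. No HPSC library overlapped an MC library in either gene (log2 ratio 6.55 ± 0.57 (SE), adjusted p = 2.5e-06 by edgeR for Pecam1, and log2 ratio 3.0 ± 0.48 (SE), adjusted p = 0.000658 by edgeR for Kit). Kit transcripts were thus present in every library sorted as negative for Kit.

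Among the genes of largest fold change on the HPSC side were Mpo, Rgs18, Cd69 and Cpa3. Mpo, the peroxidase of granulocytes (plus strand of chromosome 11, 87793581-87804413), stood at 809.7 to 9621 CPM (median 2864) in HPSC and at 2.99 to 13.2 CPM (median 7.17) in MC. Every HPSC library exceeded every MC library (log2 ratio 8.55 ± 0.61 (SE), adjusted p = 5.3e-07 by edgeR). Rgs18, a regulator of G protein signalling in megakaryocytes and platelets (minus strand of chromosome 1, 144752683-144775435), stood at 103 to 515 CPM (median 221) in HPSC and at 0.557 to 2.04 CPM (median 1.08) in MC (log2 ratio 7.64 ± 0.53 (SE), adjusted p = 4.97e-07 by edgeR). Cd69, an activation antigen of leukocytes (minus strand of chromosome 6, 129267325-129275436), ran from 33.9 to 379 CPM in HPSC (median 56.8), against 0 to 0.278 CPM in MC (median 0), with the highest level in HPSC cyclopamine negative (log2 ratio 10.15 ± 1.36 (SE), adjusted p = 0.000142 by edgeR). Cpa3, the carboxypeptidase of mast cells, stood at 66.8 to 407 CPM (median 116) in HPSC and at 0 to 2.43 CPM (median 0.499) in MC (log2 ratio 8.45 ± 1.25 (SE), adjusted p = 0.000353 by edgeR). Of the other 10 genes named by size, log2 fold changes ran from 9.26 for Cst7, a protease inhibitor of immune cells, to 7.5 for Psmb9, an immunoproteasome subunit. Between them lay Il12a (8.17), a subunit of interleukin 12, Mmrn1 (8.11), a platelet and endothelial multimerin, Gpr97 (7.77), an adhesion receptor, Elane (7.72), Bex6 (7.65), Pglyrp2 (7.64), a peptidoglycan recognition protein, Dppa5a (7.54), a gene of pluripotent and germ cells, and Cd7 (7.5), a surface protein of early lymphoid cells. Mmrn1 and Psmb9 overlapped between the groups, through 0.182 CPM of Mmrn1 in HPSC cyclopamine positive and 1.32 CPM of Psmb9 in HPSC fresh positive. All of these calls held with any 1 of the 18 libraries left out, which partly follows from choosing called genes of large fold change.

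**Figure D2:**
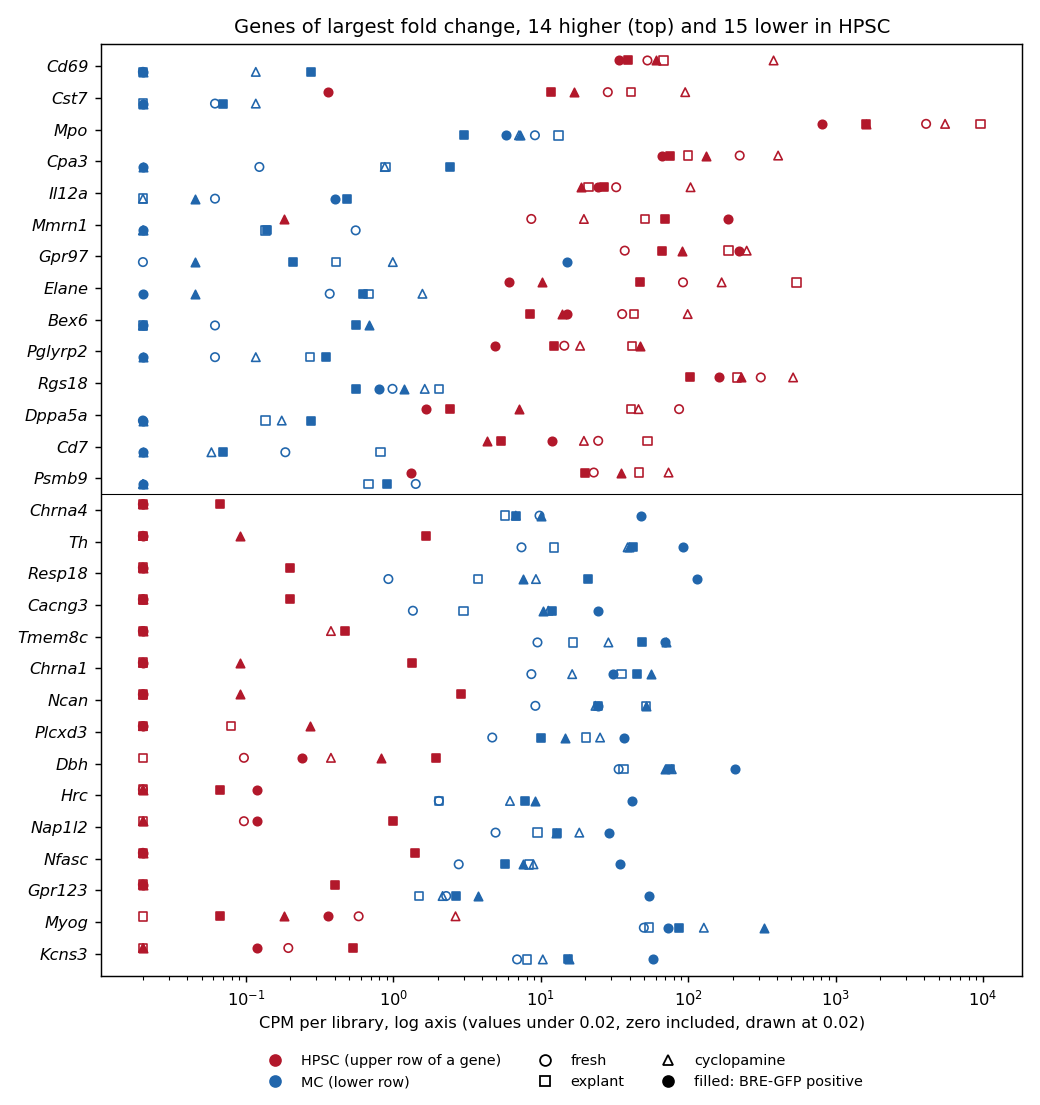
CPM in each of the 12 libraries (log axis, values under 0.02 drawn at 0.02) for 14 of the 15 higher genes of largest fold change and for the 15 lower ones, chosen among called genes with a mean of at least 10 CPM in HPSC or MC and the same direction in all 6 blocks. In the upper 14 genes the HPSC points (red) lie to the right of the MC points (blue), apart from 1 HPSC library each in Mmrn1 and Psmb9, and in the lower 15 all MC points lie to the right.

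Genes of leukocyte signalling and of the leukocyte cytoskeleton were higher in HPSC. Of 34 tested, 32 were higher in HPSC and 0 lower, with a median log2 fold change of 5.07, and 29 of the 32 calls held with any 1 library left out. Lcp1, the actin bundler of leukocytes (plus strand of chromosome 14, 75131101-75230842), had the lowest p with Rgs18 and stood at 472 to 1459 CPM (median 978) in HPSC and at 17.98 to 32.1 CPM (median 21.6) in MC (log2 ratio 5.35 ± 0.36 (SE), adjusted p = 4.97e-07 by edgeR). Laptm5, a lysosomal membrane protein of blood cells, ran from 569 to 1979 CPM in HPSC (median 1599), against 3.20 to 41.3 CPM in MC (median 31.9) (log2 ratio 5.81 ± 0.43 (SE), adjusted p = 5.68e-07 by edgeR). Rac2, the GTPase of blood cells, stood at 379 to 1647 CPM (median 796) in HPSC and at 1.997 to 34.8 CPM (median 16.5) in MC (log2 ratio 5.94 ± 0.53 (SE), adjusted p = 3.07e-06 by edgeR). The groups did not overlap in these 3 genes. Coro1a, a coronin of leukocytes, and Sash3, a lymphocyte adaptor, were 2 others of the 5 of lowest p, with log2 fold changes of 5.23 and 6.51. The kinases Btk (6.06), Sykb, now called Syk (3.93), and Lyn (4.19), the phospholipase Plcg2 (5.13), the adaptors Lcp2 (5.46) and Fyb (5.32), the integrin chain Itgb2 (5.68) and the signalling chains Tyrobp (5.13) and Fcer1g (4.7) were all called as well. The list's summed level was 4989 to 12298 CPM (median 11371) in HPSC and 237 to 438 CPM (median 381) in MC.

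Some transcription factors of blood were higher in HPSC. Of 26 tested, 13 were higher and 1 lower (4 with the covariate and 8 without both thin libraries in the higher direction), with a median log2 fold change of 2.34. Myb, a factor that definitive progenitors need, stood at 38.5 to 169.9 CPM (median 128) in HPSC and at 2.23 to 5.01 CPM (median 3.38) in MC (log2 ratio 4.78 ± 0.88 (SE), adjusted p = 0.0023 by edgeR). Fli1, an ETS factor of blood and endothelium, ran from 222 to 615 CPM in HPSC (median 468), against 44.7 to 124 CPM in MC (median 55.3) (log2 ratio 2.75 ± 0.36 (SE), adjusted p = 0.000117 by edgeR). Lmo2, the bridge of the Tal1 complex, stood at 37.03 to 131 CPM (median 67.3) in HPSC and at 0.2 to 9.74 CPM (median 3.70) in MC (log2 ratio 3.85 ± 0.78 (SE), adjusted p = 0.00467 by edgeR). None of the 3 overlapped between the groups. Runx1, the factor required for blood to emerge from endothelium, ran from 34.3 to 172 CPM in HPSC (median 53.9), against 1.60 to 21.2 CPM in MC (median 9.62) without overlap (log2 ratio 2.88 ± 0.71 (SE), adjusted p = 0.0162 by edgeR), and its adjusted p was 0.0622 without HPSC cyclopamine negative. Etv6 (1.99) and Cbfa2t3 (2.23), regulators of stem and progenitor cells, were called in every fit with 1 library left out. Gata1 (2.46), Sfpi1, now called Spi1 and encoding PU.1 (5.51), Lyl1 (4.28), Ikzf1 (3.93), Irf8 (3.96), Hhex (3.94) and Hlf (2.63) were called with all libraries and lost the call without at least 1 of them. Leaving out MC cyclopamine positive gave a count of 8, as did leaving out MC explant negative. Meis1, a homeobox gene of stem cells and of many mesenchymal tissues, was the lower one, at 104 to 341 CPM in HPSC (median 227) and 498 to 814 CPM in MC (median 573), with all MC libraries above all HPSC libraries (log2 ratio -1.62 ± 0.29 (SE), adjusted p = 0.0019 by edgeR). Gata2 and Gfi1, regulators of the first stem cells, were not called, with log2 fold changes of 0.46 and 3.93.

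Surface proteins and cytokine receptors of progenitors followed. Of 28 tested, 18 were higher and 0 lower, with a median log2 fold change of 4.23, and 16 calls held with any 1 library left out. Kit is 1 of the 18, and its call was fixed by the sort. Ptprc, which encodes the pan-leukocyte phosphatase CD45, stood at 87.2 to 389 CPM (median 268) in HPSC and at 0.599 to 11.5 CPM (median 3.39) in MC (log2 ratio 5.96 ± 0.46 (SE), adjusted p = 9.24e-07 by edgeR). Gpr56, an adhesion receptor of stem cells, ran from 537 to 1022 CPM in HPSC (median 838), against 17.98 to 83.3 CPM in MC (median 46.8) (log2 ratio 4.25 ± 0.35 (SE), adjusted p = 1.73e-06 by edgeR). Cd34, the sialomucin of progenitors and endothelium, stood at 261 to 955 CPM (median 499) in HPSC and at 23.1 to 62.8 CPM (median 40.2) in MC (log2 ratio 3.46 ± 0.41 (SE), adjusted p = 4.66e-05 by edgeR). The groups did not overlap in these 3 genes. Flt3 (6.05) and Il7r (6.81), receptors of lymphoid-primed progenitors, Cd48 (6.92), Cd53 (5.71), Cd44 (2.06) and Csf2rb (4.69), the shared chain of the interleukin 3 and GM-CSF receptors, were called and did not overlap either. Cd93, Itga2b (CD41), Spn (CD43), Cxcr4 and Cd27 were called with overlap between their lowest HPSC and highest MC libraries. Itga2b ran from 1.13 to 87.96 CPM in HPSC (median 36.5), against 2.33 to 5.59 CPM in MC (median 3.03) (log2 ratio 3.2 ± 0.7 (SE), adjusted p = 0.00816 by edgeR).

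Granulocyte, macrophage and mast cell genes were higher in HPSC. All 20 macrophage and granulocyte genes tested were higher, with a median log2 fold change of 4.89, and 17 held with any 1 library left out. Beside Mpo and Elane, the azurophil granule genes Prtn3 (6.32), Ctsg (8.96) and Ms4a3 (9.4), a gene of granulocyte and monocyte progenitors, were called. Macrophage genes moved with them. C1qb, a complement subunit made by macrophages, stood at 197 to 1386 CPM (median 598) in HPSC and at 7.75 to 30.3 CPM (median 17.1) in MC (log2 ratio 5.07 ± 0.55 (SE), adjusted p = 1.87e-05 by edgeR), and Cx3cr1, the fractalkine receptor, ran from 76.2 to 426 CPM in HPSC (median 225), against 0.599 to 27.5 CPM in MC (median 6.54) (log2 ratio 5.32 ± 0.64 (SE), adjusted p = 5.01e-05 by edgeR). Csf1r (4.24), Fcgr3 (5.48), Cd68 (4.91) and Mrc1 (4.05) were called as well. The list summed to 1766 to 15357 CPM (median 9093) in HPSC and 105 to 257 CPM (median 165) in MC, and it was lowest in HPSC fresh positive. Of 11 mast cell and eosinophil genes tested, 6 were higher and 0 lower. They were Cpa3, the chymase Cma1 (6.79), the tryptase Tpsb2 (7.74), the histidine decarboxylase Hdc (4.51) and the eosinophil granule genes Prg2 (8.23) and Epx (4.26). Epx lost its call in 14 of 18 fits with 1 library left out (adjusted p up to 0.123 without MC fresh negative), and the chymase gene Mcpt4 had 0 counts in HPSC. That list summed to 411 to 1594 CPM (median 897) in HPSC and 3.40 to 29.7 CPM (median 14.2) in MC. What part mature myeloid and mast cells had in the other differences was not tested.

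Platelet genes were higher for 7 of 14 members tested (3 with the covariate) and lower for 0, with a median log2 fold change of 4.2. Rgs18 has been given above. Plek, the pleckstrin of platelets and leukocytes, stood at 103 to 648 CPM (median 373) in HPSC and at 8.82 to 27.4 CPM (median 12.7) in MC without overlap (log2 ratio 4.38 ± 0.49 (SE), adjusted p = 2.23e-05 by edgeR). Pf4, platelet factor 4, ran from 12.8 to 291 CPM in HPSC (median 239), against 1.81 to 30.2 CPM in MC (median 6.66) (log2 ratio 4.82 ± 0.85 (SE), adjusted p = 0.00154 by edgeR), and its groups overlapped through the lowest HPSC library. The glycoprotein genes Gp1ba (5.09) and Gp9 (4.35), Itgb3 (2.46) and the podoplanin receptor Clec1b (4.36) lost their call in at least 1 fit with a library left out, and the count was 4 without HPSC cyclopamine positive or without MC explant negative. The 14 genes summed to 435 to 1459.9 CPM (median 1019) in HPSC and 33.96 to 66.1 CPM (median 37.8) in MC, and to 1617 to 5784 CPM (median 1682) in EC.

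Erythroid genes gave no call between the populations with all libraries. Of 16 tested, 0 were called (1 without HPSC fresh negative), beside 9.95% of all genes tested. Fold changes were negative for 13 members and positive for 3, with a median log2 of -0.99 beside -0.38 over all genes. List scores were lower in HPSC in 5 of 6 blocks and higher in fresh positive cells, with differences of -3.61 to 2.04. With this spread, the absence of calls does not show equal levels. The list summed to 1903 to 15418 CPM (median 8488) in HPSC and 496 to 28461 CPM (median 9390.4) in MC. Alas2, the first enzyme of heme synthesis in red cells, stood at 31.5 to 114 CPM (median 84.2) in HPSC and at 0.2 to 366 CPM (median 225) in MC, and the groups overlapped (log2 ratio -1.06 ± 0.91 (SE), adjusted p = 0.517 by edgeR). Of 7 lymphoid genes tested, 0 were called as well (1 without EC fresh positive or MC explant positive), and the T cell and B cell genes Cd3e, Cd79a and Pax5 were below the limit for testing. The part of erythroid RNA in the other differences was not tested.

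Of 25 pan-endothelial genes tested, 21 were higher in HPSC and 0 lower, Pecam1 among them by the sort, with a median log2 fold change of 4.93. The count was 15 to 21 with 1 library left out, and 15 genes held in all such fits. Cdh5, the cadherin of endothelial junctions, stood at 12.5 to 832 CPM (median 309.9) in HPSC and at 0.874 to 4.25 CPM (median 2.79) in MC. The lowest HPSC value was that of fresh negative cells, and the 3 BRE-GFP positive HPSC libraries were the highest (log2 ratio 6.44 ± 0.79 (SE), adjusted p = 6.12e-05 by edgeR). Icam2, an adhesion molecule of endothelium, platelets and leukocytes, ran from 50.8 to 622 CPM in HPSC (median 246), against 0.612 to 2.77 CPM in MC (median 1.67) (log2 ratio 6.92 ± 0.64 (SE), adjusted p = 4.3e-06 by edgeR). Eltd1, an adhesion receptor of vessels, stood at 79.6 to 597 CPM (median 388) in HPSC and at 0.362 to 3.55 CPM (median 1.28) in MC (log2 ratio 7.45 ± 0.75 (SE), adjusted p = 8.68e-06 by edgeR), and both genes kept the groups apart. Esam (4.81), Egfl7 (4.93), Cldn5 (6.65), Robo4 (7.05), Tie1 (5.26), Kdr (3.32), the main VEGF receptor, and the SOXF factor Sox18 (5.8) were called. The 25 genes summed to 608 to 12896 CPM (median 4455) in HPSC and 118 to 349 CPM (median 147) in MC, against 821 to 12643 CPM (median 2126) in EC, and no member had 0 counts in all 6 HPSC libraries. Per block, the score difference was 6.45 in fresh positive, 6.45 in explant positive and 6.02 in cyclopamine positive cells, and 0.59, 3.92 and 3.32 in the negative cells of the same cultures. Whether endothelial cells in the HPSC gate contributed to these values was not tested.

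Of 15 arterial and Notch genes tested, 4 were higher and 1 lower (3 and 0 with the covariate), with a median log2 fold change of 1.09. The gap junction gene Gja4 stood at 6.01 to 483 CPM (median 209) in HPSC and at 0.999 to 10.1 CPM (median 4.70) in MC (log2 ratio 4.81 ± 0.8 (SE), adjusted p = 0.00102 by edgeR), and the Notch ligand Dll4 ran from 0.0969 to 398 CPM in HPSC (median 98.8), against 0.185 to 2.79 CPM in MC (median 0.897) (log2 ratio 6.23 ± 1.05 (SE), adjusted p = 0.00115 by edgeR). Gja5 (4.17) and Notch4 (5.18) were the other higher ones, and all 4 overlapped between the groups, with HPSC fresh negative cells within or below the MC range in each. Gja5 kept its call in 14 of 18 fits with 1 library left out. Heyl, a Notch target of smooth muscle, was lower, at 1.13 to 34.7 CPM in HPSC (median 13.2) and 63.9 to 267 CPM in MC (median 145) without overlap (log2 ratio -3.3 ± 0.66 (SE), adjusted p = 0.00437 by edgeR). Notch1 (log2 fold change 1.17), Jag1 (-1.2), a ligand that mesenchyme and artery share, and Hey2 (-3.85) were not called.

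Germ cell genes were higher for 6 of 17 members tested (3 with the covariate) and lower for 0, with a median log2 fold change of 2.78. Primordial germ cells carry Kit and pass through the AGM region on their way to the gonads. Dppa3, a germ cell and oocyte factor, stood at 0 to 175 CPM (median 52.4) in HPSC and at 0 to 0.583 CPM (median 0.197) in MC, with 0 CPM in HPSC fresh positive (log2 ratio 7.58 ± 1.15 (SE), adjusted p = 0.000439 by edgeR). Dazl, the germ cell RNA-binding protein, ran from 0 to 428 CPM in HPSC (median 46.2), against 0.123 to 2.18 CPM in MC (median 0.433), with 0 CPM in the same library (log2 ratio 6.64 ± 1.26 (SE), adjusted p = 0.00287 by edgeR). The other called members were Ddx4 (4.42), Dppa5a, Prdm1 (3.14), which plasma cells also use, and Utf1, with 485 counts over the HPSC libraries and 1 over the MC libraries (ratio 726, exact 95% counting interval 130 to 28721). With 1 library left out, Prdm1 kept its call in 10 of 18 fits and Utf1 in 16, and the other 4 held in all. The defining pluripotency genes Nanog and Pou5f1 had medians of 0 and 0.234 CPM in HPSC and were not called. The list summed to 227 to 1275 CPM (median 623) in HPSC and 122 to 285 CPM (median 152) in MC. Its HPSC score lay above that of MC in 5 of 6 blocks and differed by -0.01 in fresh positive cells, against 4.47 in fresh negative cells, and by 1.18 in explant positive against 3.92 in explant negative cells. The part of germ cells in the HPSC profile was not tested.

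Genes of antigen presentation and of the interferon response were higher for 5 of 12 members tested (3 with the covariate) and lower for 0. B2m, the light chain of class I molecules, stood at 521 to 2946 CPM (median 1133) in HPSC and at 146 to 426 CPM (median 241) in MC (log2 ratio 2.25 ± 0.39 (SE), adjusted p = 0.00145 by edgeR), and H2-D1, a class I heavy chain, ran from 67.9 to 215 CPM in HPSC (median 157), against 0.2 to 13.2 CPM in MC (median 6.35) (log2 ratio 4.62 ± 0.69 (SE), adjusted p = 0.000401 by edgeR). Neither overlapped between the groups. Psmb8 (5.69), Psmb9 and H2-K1 (3.5) were the others, and class I genes share sequence, which the counting could split between them. H2-K1 had an adjusted p of 0.112 without MC fresh negative. The interferon-induced genes Ifit3 (1.81) and Irf7 (2.7) were not called.

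**Figure D3:**
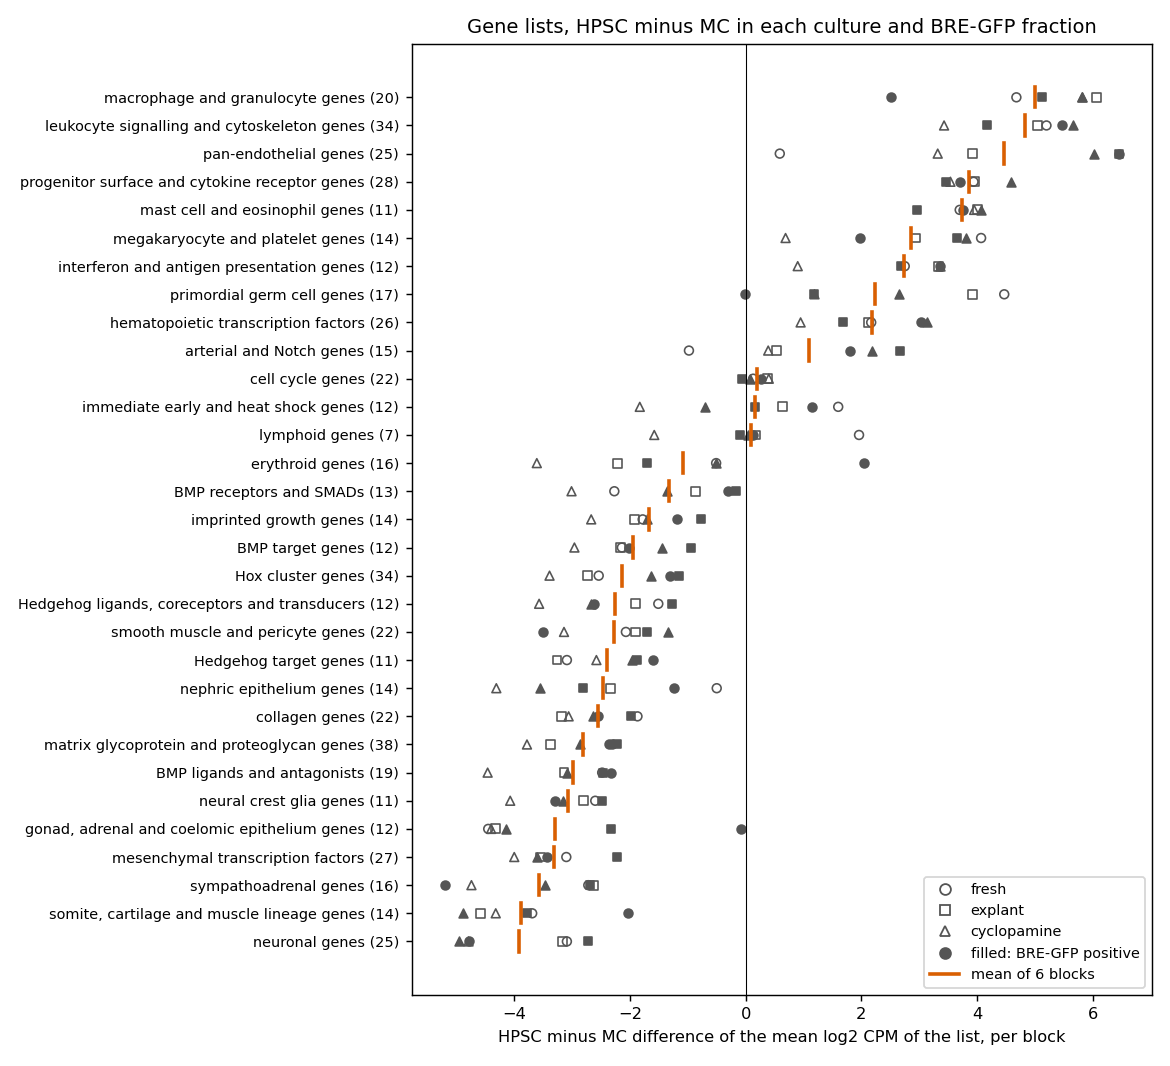
HPSC minus MC difference of the mean log2 CPM of 31 gene lists, with 1 marker per block (circle fresh, square explant, triangle cyclopamine, filled for BRE-GFP positive) and a bar at the mean of the 6 blocks. Numbers in brackets are the members tested. Macrophage and granulocyte genes have the highest mean (5.0) and neuronal genes the lowest (-3.92), and pan-endothelial genes lie at 6.02 to 6.45 in BRE-GFP positive blocks and at 0.59 to 3.92 in negative ones.

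Among the genes of largest fold change on the MC side were Th, Dbh, Myog and Chrna4. Th, tyrosine hydroxylase of catecholamine synthesis (minus strand of chromosome 7, 142892752-142931128), stood at 0 to 1.67 CPM (median 0) in HPSC and at 7.40 to 91.9 CPM (median 39.1) in MC. Of the HPSC libraries 4 had no count, and no HPSC library reached the lowest MC library (log2 ratio -9.98 ± 1.68 (SE), adjusted p = 0.00111 by edgeR). Dbh, dopamine beta-hydroxylase (plus strand of chromosome 2, 27165233-27183200), ran from 0 to 1.94 CPM in HPSC (median 0.308), against 33.7 to 208 CPM in MC (median 72.6) (log2 ratio -8.55 ± 1.17 (SE), adjusted p = 0.00018 by edgeR). Myog, the muscle differentiation factor (plus strand of chromosome 1, 134289989-134292548), stood at 0 to 2.64 CPM (median 0.271) in HPSC and at 50.00 to 325 CPM (median 79.9) in MC (log2 ratio -8.03 ± 0.94 (SE), adjusted p = 3.99e-05 by edgeR). Chrna4, a neuronal subunit of the nicotinic acetylcholine receptor, had 1 count over the 6 HPSC libraries and 919 over the 6 MC libraries, a ratio of MC over HPSC of 614 per library total (exact 95% counting interval 110 to 24286; edgeR adjusted p = 0.00132). Such an interval covers counting error only. Agtr2, the type 2 angiotensin receptor of fetal mesenchyme (plus strand of chromosome X, 21484544-21489164), led this side by p and ran from 0.636 to 19.8 CPM in HPSC (median 3.42), against 91.99 to 974 CPM in MC (median 609.8) (log2 ratio -6.75 ± 0.62 (SE), adjusted p = 4.22e-06 by edgeR). The remaining genes named by size included Chrna1 (-8.81), the muscle subunit of the acetylcholine receptor, and Tmem8c (-9.19), now called Mymk, which fuses myoblasts. The proteoglycan Ncan (-8.77), Plcxd3 (-8.6), Nap1l2 (-8.28), the axonal adhesion protein Nfasc (-8.15), Gpr123 (-8.03) and the potassium channel gene Kcns3 (-7.89) made up most of the rest. Resp18, Cacng3 and Hrc had 3, 3 and 2 counts over the HPSC libraries, against 1266, 781 and 692 over the MC libraries. Their ratios of MC over HPSC were 282 (interval 96.3 to 1369), 174 (59.3 to 846) and 231 (63.8 to 1913). Groups did not overlap in any of the 15, and 14 calls held with any 1 library left out. The exception was Nfasc (edgeR adjusted p = 0.0502 without MC fresh negative). The 15 were chosen as called, of largest fold change and lower in every block, so both counts partly follow from that choice.

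Transcription factors of mesenchyme were lower in HPSC. Of 27 tested, 13 were lower (2 with the covariate and 6 without both thin libraries) and 0 higher, all 27 had a negative fold change, and the median was -3.41. Twist1, a factor of mesenchymal migration, stood at 0 to 6.30 CPM (median 0.558) in HPSC and at 11.98 to 108 CPM (median 19.3) in MC (log2 ratio -5.39 ± 1.06 (SE), adjusted p = 0.00386 by edgeR). Tbx3, a T-box factor of limb, heart and trunk mesenchyme, ran from 0.377 to 9.10 CPM in HPSC (median 5.46), against 57.7 to 105 CPM in MC (median 75.4) (log2 ratio -3.89 ± 0.63 (SE), adjusted p = 0.000766 by edgeR). Nr2f2, a nuclear receptor of mesenchyme and veins, stood at 29.6 to 324 CPM (median 84.2) in HPSC and at 371 to 746 CPM (median 424) in MC (log2 ratio -2.3 ± 0.42 (SE), adjusted p = 0.002 by edgeR). No HPSC library reached an MC library in these 3. Snai2 (-3.02) and Tcf21 (-3.41), a factor of fibroblast and kidney stroma precursors, held in all fits with 1 library left out. Prrx1 (-3.17), Prrx2 (-5.6), Tbx2 (-5.81), Ebf2 (-3.97), Nr2f1 (-3.02), Msx2 (-5.74) and Gata6 (-2.38) were called with all libraries and lost the call in at least 1 such fit. The count fell to 7 or 8 without HPSC fresh positive, HPSC cyclopamine positive, HPSC explant negative, MC fresh negative, MC fresh positive, MC cyclopamine positive or MC explant negative. Nfia, a nuclear factor I gene of many mesenchymal and neural cells (plus strand of chromosome 4, 97772734-98118874), was among the 5 lower genes of lowest p, at 91.8 to 313 CPM in HPSC (median 213) and 502 to 1627 CPM in MC (median 1268) (log2 ratio -2.36 ± 0.26 (SE), adjusted p = 1.82e-05 by edgeR).

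Hox genes, which mark the position of trunk cells along the body axis, were lower for 6 of 34 members tested (0 with the covariate and 3 without both thin libraries) and higher for 0 (median -2.52). Hoxc4 had 2 counts over the HPSC libraries and 590 over the MC libraries (ratio MC over HPSC 197, counting interval 54.3 to 1632). Hoxd13, the most posterior gene of its cluster, stood at 0 to 0.735 CPM (median 0.237) in HPSC and at 4.57 to 31.4 CPM (median 20.98) in MC (log2 ratio -6.58 ± 1.52 (SE), adjusted p = 0.0114 by edgeR), and these 2 held with any 1 library left out. Hoxc5 (-4.71), Hoxc8 (-3.69), Hoxc10 (-2.14) and Hoxd10 (-3.66) did not. The count was 2 without MC fresh negative. It was 3 without HPSC explant negative, HPSC explant positive, HPSC cyclopamine positive, EC explant positive, MC fresh positive, MC cyclopamine positive, MC explant negative or MC explant positive.

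Genes of the fibrous matrix were lower in HPSC. Of 22 collagen genes tested, 13 were lower and 1 higher in HPSC (7 and 0 with the covariate, 8 and 1 without both thin libraries), with a median log2 fold change of -2.88. Col1a2, a chain of type I collagen, stood at 32.8 to 239.7 CPM (median 131) in HPSC and at 577 to 2355 CPM (median 935) in MC (log2 ratio -2.98 ± 0.5 (SE), adjusted p = 0.00108 by edgeR), and Col3a1, the type III chain, ran from 84.1 to 263 CPM in HPSC (median 159), against 496 to 2227 CPM in MC (median 771) (log2 ratio -2.5 ± 0.38 (SE), adjusted p = 0.0005 by edgeR). Every MC library exceeded every HPSC library in both. Col1a1 (-3.22), Col5a1 (-3.06), Col12a1 (-3.81), Col14a1 (-4.38) and the cartilage chains Col2a1 (-4.28) and Col11a1 (-3.87) were lower as well. Col18a1, a collagen of basement membranes, was the higher one, at 54.8 to 429 CPM in HPSC (median 227) and 24.1 to 135 CPM in MC (median 41.3) (log2 ratio 1.91 ± 0.4 (SE), adjusted p = 0.00552 by edgeR). The type IV chain Col4a1, another basement membrane gene, was not called, with a log2 fold change of 0.82.

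Of 38 matrix glycoprotein and proteoglycan genes tested, 23 were lower and 0 higher, with a median log2 fold change of -2.72, and 20 held with any 1 library left out. Mfap4, a microfibril-associated protein (plus strand of chromosome 11, 61485431-61488900), stood at 28.5 to 127 CPM (median 55.5) in HPSC and at 331 to 1195 CPM (median 757) in MC (log2 ratio -3.63 ± 0.37 (SE), adjusted p = 9.71e-06 by edgeR). Gpc3, a glypican of growing mesenchyme, ran from 96.96 to 597 CPM in HPSC (median 251), against 1146 to 2810.0 CPM in MC (median 1703) (log2 ratio -2.94 ± 0.44 (SE), adjusted p = 0.000377 by edgeR). Dcn, the proteoglycan decorin, stood at 18.2 to 165 CPM (median 92.3) in HPSC and at 196 to 1991 CPM (median 1027) in MC (log2 ratio -3.05 ± 0.5 (SE), adjusted p = 0.000839 by edgeR), with the lowest 2 MC values in fresh cells. The groups stayed apart in all 3. Lum (-3.22), Postn (-3.39), Vcan (-2.73), Ogn (-4.67), the fibrillin genes Fbn1 (-1.76) and Fbn2 (-2.42), Mfap2 (-2.72), Eln (-3.73), the crosslinking enzyme Lox (-6.67) and the fibroblast protease Fap (-7.35) were lower. Fn1 (-1.41), fibronectin, was not called. The list summed to 3259 to 15754 CPM (median 6413) in HPSC and 14311 to 22284 CPM (median 16855) in MC.

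Smooth muscle and pericyte genes were lower for 10 of 22 members tested (6 with the covariate) and higher for 0, with a median log2 fold change of -2.16. Acta2, smooth muscle actin, stood at 70.2 to 235 CPM (median 111) in HPSC and at 418 to 2081 CPM (median 612) in MC (log2 ratio -2.67 ± 0.47 (SE), adjusted p = 0.00156 by edgeR). Pdgfrb, the receptor that pericytes and mesenchyme use for PDGF-B (plus strand of chromosome 18, 61045150-61085061), ran from 11.5 to 69.5 CPM in HPSC (median 28.8), against 157 to 563 CPM in MC (median 263) (log2 ratio -3.18 ± 0.39 (SE), adjusted p = 5.93e-05 by edgeR). Pdgfra, its partner of fibroblast precursors, stood at 17.2 to 91.2 CPM (median 41.2) in HPSC and at 178 to 854 CPM (median 455) in MC (log2 ratio -3.36 ± 0.42 (SE), adjusted p = 7.53e-05 by edgeR). No HPSC library reached an MC library in these 3 genes. Tpm1 (-2.26), Tpm2 (-2.07), Cald1 (-1.68), Myl9 (-2.83), Cnn1 (-6.52) and the pericyte proteoglycan Cspg4 (-3.32) were called too. The late contractile gene Myh11 (-2.04) and its cofactor Myocd (-2.03) were not.

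Sympathoadrenal genes were lower for 10 of 16 members tested (3 with the covariate and 5 without both thin libraries) and higher for 0. The median log2 fold change was -5.47, or -4.93 with Insm1, which had 0 HPSC counts, set at its bound. Isl1, a factor of sympathetic and motor neurons, ran from 0.12 to 75.3 CPM in HPSC (median 10.02), against 105 to 247 CPM in MC (median 166) (log2 ratio -4.16 ± 0.96 (SE), adjusted p = 0.0114 by edgeR), without overlap. Chgb (-6.79) and Chga (-7.63), granins of secretory vesicles, were called, and Insm1, a neuroendocrine factor, was at least 25.4-fold lower in HPSC (a floor of 3 counts over the group, against 114 counts in MC). The count was 6 without MC explant negative. The list summed to 52.4 to 264 CPM (median 188) in HPSC and 445 to 1249 CPM (median 514) in MC, and MC fresh positive was its highest library. Of 25 neuronal genes tested, 15 were lower (2 with the covariate) and 0 higher (median -4.76), and 8 of the calls held with any 1 library left out. Tubb3, neuronal tubulin, stood at 0.359 to 10.6 CPM (median 8.72) in HPSC and at 47.04 to 231 CPM (median 163) in MC (log2 ratio -4.96 ± 0.79 (SE), adjusted p = 0.000658 by edgeR), and Ncam1, which mesenchyme also carries, ran from 140.4 to 602 CPM in HPSC (median 303), against 997 to 2402 CPM in MC (median 1815) (log2 ratio -2.33 ± 0.34 (SE), adjusted p = 0.000333 by edgeR). The neurofilament gene Nefm (-6.11), the synaptic gene Syt1 (-7.05), Elavl4 (-4.12) and Dcx (-6.05) were lower too. Neuronal genes summed to 422 to 894 CPM (median 478) in HPSC and 1612 to 3679 CPM (median 2997) in MC. Of 11 glial genes of the neural crest, Tcfap2b (-5.51) and Tcfap2a (-5.36) were lower (0 with the covariate and 1 without both thin libraries), while Sox10 (-4.87) was not called. Tcfap2b held with any 1 library left out, and Tcfap2a lost its call without HPSC cyclopamine positive, MC cyclopamine negative, MC cyclopamine positive or MC explant negative.

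Other lineages of the region were also on the MC side. Of 14 somite, cartilage and muscle genes tested, 7 were lower (3 with the covariate) and 0 higher, with a median of -5.11, or -4.63 with Nkx3-2, a sclerotome factor with 0 HPSC counts that was not called, set at its bound. Sox9, the factor of cartilage and gonad, stood at 0.377 to 35.6 CPM (median 15.2) in HPSC and at 144 to 315 CPM (median 194) in MC (log2 ratio -3.77 ± 0.67 (SE), adjusted p = 0.00182 by edgeR), and Actc1, the early striated muscle actin, ran from 0.547 to 9.49 CPM in HPSC (median 3.42), against 131 to 636 CPM in MC (median 274) (log2 ratio -6.33 ± 0.97 (SE), adjusted p = 0.000472 by edgeR). Myf5 (-6.73), Pax9 (-5.96), Sox5 (-4.9) and Myod1 were the remaining lower ones beside Myog. Myod1, a muscle determination factor, had 2 counts over the HPSC libraries and 686 over the MC libraries (ratio MC over HPSC 229, counting interval 63.2 to 1897). Of the 7, 3 held with any 1 library left out. The count was 3 or 4 without HPSC explant negative, HPSC explant positive, HPSC cyclopamine positive, EC explant positive, MC fresh negative, MC cyclopamine negative, MC cyclopamine positive or MC explant positive. Of 12 genes of gonad, adrenal and coelomic epithelium, 7 were lower (0 with the covariate and 4 without both thin libraries) and 0 higher. Wt1, a factor of the gonadal ridge and mesonephros, stood at 4.13 to 34.6 CPM (median 17.96) in HPSC and at 68.6 to 181 CPM (median 88.9) in MC (log2 ratio -2.65 ± 0.57 (SE), adjusted p = 0.00701 by edgeR). Nr5a1 (-5.91), which specifies gonad and adrenal, Lhx9 (-5.31), Upk3b (-5.41), Msln (-6.03) and Inha (-4.43) were called and lost the call in at least 1 fit with a library left out. The remaining lower member was Bmp4, which also stands in the list of BMP ligands below. Wt1 and Bmp4 held with any 1 library left out. The count was 2 or 3 without HPSC fresh negative, HPSC cyclopamine negative, HPSC cyclopamine positive, HPSC explant negative, MC fresh negative, MC cyclopamine positive or MC explant negative. Of 14 nephric epithelium genes, Cdh16 (-6.6), Wnt9b and Sall1 (-5.38) were lower (0 with the covariate and 1 without both thin libraries), a count that was 0 or 1 in 13 of 18 fits with 1 library left out, those without any HPSC library, without any MC library but fresh positive, and without EC explant negative or EC explant positive. Wnt9b had 0 HPSC counts and was at least 24.1-fold lower. The 3 lists summed to 40.2 to 90.96 CPM (median 58.6) in HPSC and 587 to 1524 CPM (median 769) in MC, to 15.02 to 153 CPM (median 33.6) in HPSC and 226 to 345 CPM (median 279.6) in MC, and to 41.5 to 199 CPM (median 88.7) in HPSC and 120.5 to 265 CPM (median 197) in MC. How much each lineage gave to the MC profile was not tested.

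**Figure D4:**
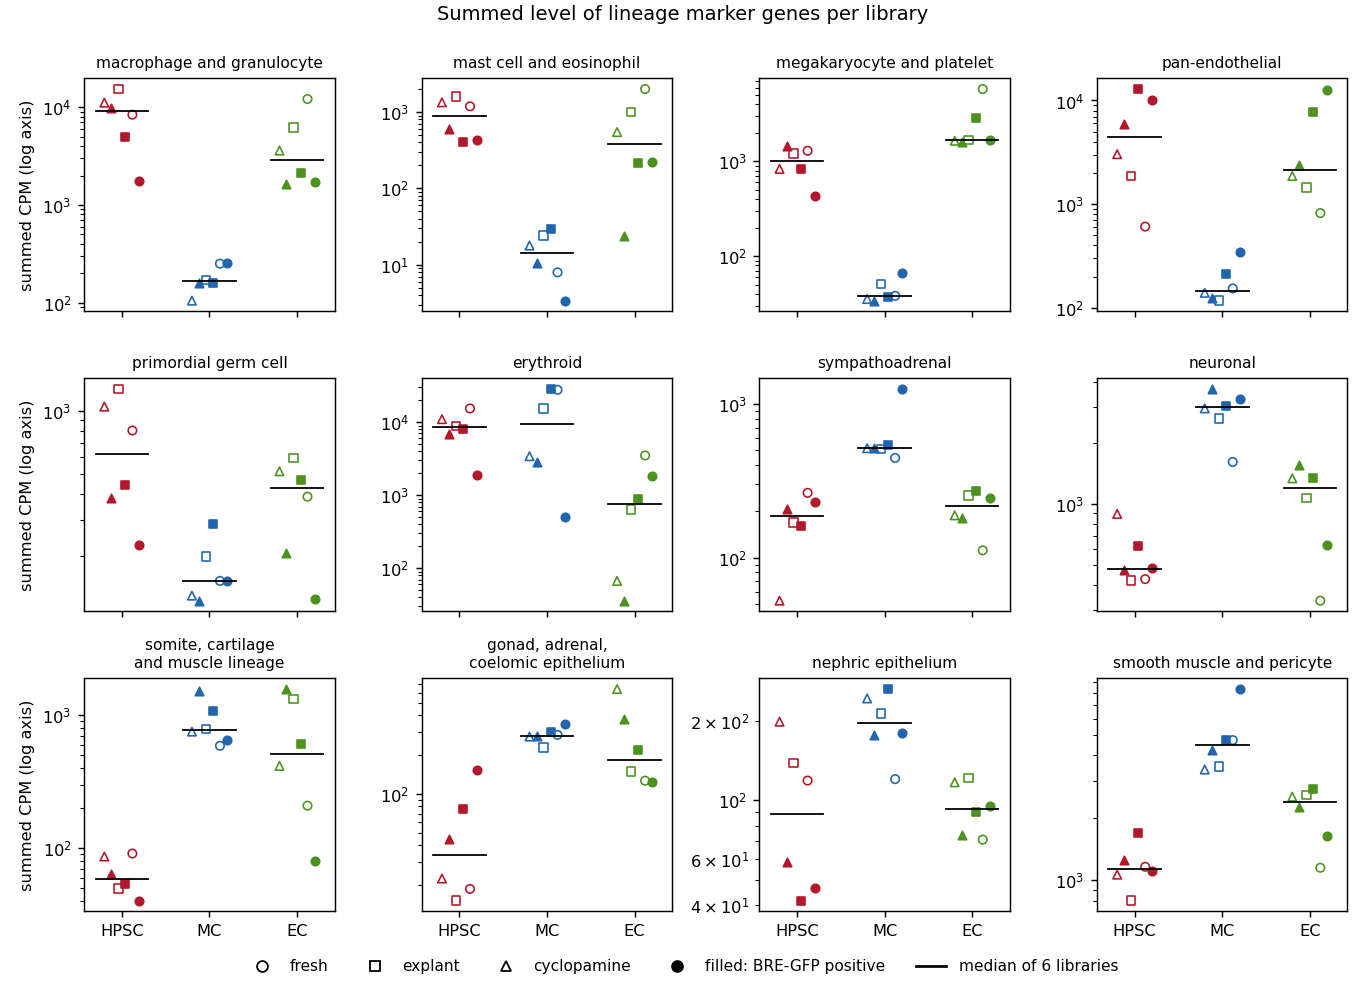
Summed CPM of 12 marker lists in each library (log axis, a scale per panel) for HPSC, MC and EC, with a line at the median of 6 libraries and filled markers for BRE-GFP positive cells. Between HPSC and MC, myeloid, mast cell, platelet, endothelial and germ cell lists have the higher median in HPSC. Neural, muscle and epithelial lists have the higher median in MC. Erythroid, germ cell and nephric sums overlap between HPSC and MC libraries.

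The reporter and the culture medium both bear on the BMP pathway. BMP ligands bind paired receptors, which pass the signal to SMAD proteins, and antagonists trap the ligands outside the cell. Of 19 ligands and antagonists tested, 6 were lower in HPSC (2 with the covariate, where Bmp4 had an adjusted p of 0.247 and Bmp3 of 0.391 by edgeR) and 0 higher, with a median log2 fold change of -4.01. Bmp4, the ligand of the ventral aortic mesenchyme, stood at 0.159 to 37.9 CPM (median 5.87) in HPSC and at 26.5 to 97.1 CPM (median 61.8) in MC, with overlap (log2 ratio -3.46 ± 0.81 (SE), adjusted p = 0.0122 by edgeR). Bmp5 ran from 0.12 to 9.40 CPM in HPSC (median 1.28), against 22.8 to 48.6 CPM in MC (median 37.9) (log2 ratio -4.61 ± 1.02 (SE), adjusted p = 0.00843 by edgeR), and the secreted modulator Bmper stood at 0.598 to 18.2 CPM (median 5.60) in HPSC and at 62.9 to 159.9 CPM (median 131) in MC (log2 ratio -4.88 ± 0.68 (SE), adjusted p = 0.000222 by edgeR), both without overlap. Bmp3 (-6.14), Gdf10 (-4.36) and the antagonist Chrdl1 (-7.02) were the other lower ones. Of 13 receptors and SMADs, 0 were higher and the type I receptor Bmpr1a alone was lower (-1.9; not called with the covariate or without both thin libraries; adjusted p = 0.0745 without MC fresh negative), with a list median of -0.68. Smad1 (1.07) and Smad5 (-0.53), which carry the signal, were not called.

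Of 12 BMP target genes tested, 5 were lower (3 with the covariate and 3 without both thin libraries) and 0 higher (median -1.46). Id3, an inhibitor of differentiation, stood at 113 to 299 CPM (median 240.3) in HPSC and at 348 to 1020.0 CPM (median 491) in MC (log2 ratio -1.47 ± 0.32 (SE), adjusted p = 0.00726 by edgeR) without overlap, and Id2 ran from 199.7 to 885 CPM in HPSC (median 392), against 632 to 1037 CPM in MC (median 935) (log2 ratio -1.25 ± 0.3 (SE), adjusted p = 0.0143 by edgeR). Id1 (-1.9), Msx2 and Bmper were the others, and Bmper and Msx2 stand in 2 lists each. The count was 3 in 8 fits with 1 library left out, those without HPSC fresh negative, HPSC cyclopamine positive, HPSC explant negative, HPSC explant positive, MC fresh negative, MC fresh positive, MC cyclopamine negative or MC explant positive. The score was lower in HPSC in 6 of 6 blocks. The difference was -2.02 in fresh positive and -2.14 in fresh negative cells, -0.94 in explant positive and -2.16 in explant negative cells, and -1.45 in cyclopamine positive and -2.96 in cyclopamine negative cells. Id1, Id2 and Id3 also respond to other signals.

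Hedgehog ligands release Smoothened from the receptor Ptch1, and Gli factors then act in the nucleus. Of 12 ligands, coreceptors and transducers tested, 5 were lower in HPSC (1 with the covariate) and 0 higher (median -2.48). Gli2 stood at 0.12 to 10.02 CPM (median 1.02) in HPSC and at 24.3 to 78.5 CPM (median 36.3) in MC (log2 ratio -5.07 ± 1.07 (SE), adjusted p = 0.00634 by edgeR), the coreceptor Boc ran from 0.0969 to 4.31 CPM in HPSC (median 1.31), against 17.1 to 48.7 CPM in MC (median 35.8) (log2 ratio -4.43 ± 0.75 (SE), adjusted p = 0.00121 by edgeR), and Gli3 stood at 15.6 to 63.3 CPM (median 27.5) in HPSC and at 58.6 to 241 CPM (median 141) in MC (log2 ratio -2.1 ± 0.35 (SE), adjusted p = 0.00112 by edgeR). Gli2 and Boc did not overlap between the groups, and Gli3 did. The coreceptor Gas1 (-2.07) was lower as well, and Shh, with 0 counts in HPSC and 124 in MC, was at least 27.6-fold lower. The count was 3 without HPSC fresh positive, HPSC explant negative, HPSC explant positive or MC fresh positive. Smo (-1.5) was not called. Of 11 target genes, 4 were lower (0 with the covariate and 2 without both thin libraries) and 0 higher (median -2.5). Gli1, the most direct readout of the pathway, stood at 0 to 12.8 CPM (median 0.826) in HPSC and at 19.5 to 41.1 CPM (median 30.5) in MC without overlap (log2 ratio -4.77 ± 1.21 (SE), adjusted p = 0.0196 by edgeR), and its adjusted p was 0.0574 without MC fresh positive. Ccnd2 (-1.39), Hhip (-5.83) and Foxf2 (-5.34) were the others, and the count was 1 or 2 without HPSC fresh positive, HPSC cyclopamine positive, HPSC explant negative, HPSC explant positive, MC cyclopamine negative or MC cyclopamine positive. Target scores were lower in HPSC in 6 of 6 blocks, with differences of -3.26 to -1.61, and in cyclopamine the differences were -1.96 in positive and -2.58 in negative cells.

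Imprinted growth genes were lower for 5 of 14 members tested (2 with the covariate and 2 without both thin libraries) and higher for 0. Meg3, a maternally expressed long RNA, stood at 9.43 to 81.3 CPM (median 68.3) in HPSC and at 218 to 859 CPM (median 434) in MC (log2 ratio -2.92 ± 0.45 (SE), adjusted p = 0.000535 by edgeR), and its neighbour Dlk1, paternally expressed, ran from 6.36 to 14.3 CPM in HPSC (median 7.44), against 25.8 to 174 CPM in MC (median 69.7) (log2 ratio -2.94 ± 0.66 (SE), adjusted p = 0.00918 by edgeR). Both kept the groups apart. Cdkn1c (-2.28), Plagl1 (-1.22) and Zim1 (-4.33) were the others, and the count was 3 in 7 fits with 1 library left out, those without HPSC cyclopamine positive, HPSC explant negative or any MC library but fresh positive. Igf2 (-0.83) and H19 (-0.71) were not called.

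Cell cycle genes gave no call between the populations with all libraries. Of 22 tested, 0 were called by edgeR and 15 had a positive fold change. The median log2 fold change was 0.26 beside -0.38 over all genes. Mki67, the proliferation antigen, stood at 171 to 478 CPM (median 367) in HPSC and at 115 to 526 CPM (median 279) in MC and was not called (log2 ratio 0.42 ± 0.23 (SE), adjusted p = 0.267 by edgeR). The count was 1, in the higher direction, without HPSC cyclopamine negative, and 2, also higher, without both thin libraries. The list score differed by -0.06 to 0.4 (mean 0.2, SD 0.18) over the 6 blocks. Of 12 immediate early and heat shock genes, which respond to cell handling, 0 were called (median 0.16), and the list score difference ran over -1.83 to 1.6 (mean 0.17, SD 1.27) between blocks. The count was 1 without HPSC fresh negative, HPSC cyclopamine negative or MC fresh negative. The score difference was positive in both fresh and both explant blocks and negative in both cyclopamine blocks.

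Paired ligands and receptors were read for where each side of a signal lay. Of 43 pairs, 2 had the ligand called lower and the receptor called higher in HPSC, 1 had the reverse, and 2 had both lower. The first kind held Cxcl12 with Cxcr4, which keeps stem cells in their niche, and Il34 with Csf1r, which sustains macrophages. Cxcl12 stood at 2.26 to 127 CPM (median 51.3) in HPSC and at 139 to 634 CPM (median 186) in MC (log2 ratio -2.47 ± 0.52 (SE), adjusted p = 0.00612 by edgeR), and Cxcr4 ran from 7.30 to 373 CPM in HPSC (median 145), against 0.2 to 12.1 CPM in MC (median 7.83) (log2 ratio 4.29 ± 0.49 (SE), adjusted p = 2.82e-05 by edgeR). Il34 had a median of 0 CPM in HPSC and 1.38 CPM in MC (log2 ratio -5.62 ± 1.59 (SE), adjusted p = 0.0336 by edgeR), and its adjusted p was 0.0992 without MC cyclopamine positive. The reverse pair was Pdgfb with Pdgfrb. Pdgfb, which vessels use to recruit pericytes, stood at 13.9 to 177 CPM (median 58.1) in HPSC and at 0 to 2.16 CPM (median 1) in MC (log2 ratio 5.88 ± 0.79 (SE), adjusted p = 0.000143 by edgeR). Both members were lower for Bmp4 with Bmpr1a and for Wnt5a (-3.03) with Ror2 (-3.49). With 1 library left out, Ror2 kept its call in 4 of 18 fits, Il34 in 8 and Bmpr1a in 11.

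The calls for each side were as follows. Of 42 distinct receptors, 14 were higher and 6 lower, and of 43 ligands, 4 were higher, 9 were lower and 3 were below the limit for testing, Epo, Csf2 and Csf3. The 14 higher receptors included Flt3, Il7r, Csf3r (5.11), Csf2rb, Cx3cr1, Selplg (6.1), Csf1r, Cxcr4 and Kit, whose call the sort fixed, and Kdr, Flt4 (4.78), Tek (3.62) and Aplnr (3.85). Kitl, the ligand of Kit, stood at 31.9 to 648 CPM (median 284) in HPSC and at 7.79 to 142 CPM (median 81.96) in MC and was not called (log2 ratio 1.46 ± 0.68 (SE), adjusted p = 0.191 by edgeR). Csf1 (-2.3) and Vegfa (-1.65) were not called either. The 4 higher ligands were Tnf (6.59), Il1b (5.91), Pdgfb and Dll4. Beside those named, the lower ligands included Sema3c (-5.18), Il33 (-3.27), Slit2 (-2.56) and Shh. Slit2 kept its call in 8 of 18 fits with 1 library left out, and Shh in 11 of the 15 that tested it. The 6 lower receptors were Pdgfrb, Pdgfra, Fgfr2 (-2.02), Axl (-1.39), Ror2 and Bmpr1a. A transcript level in a sorted fraction does not give the amount of protein or its release.

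**Figure D5:**
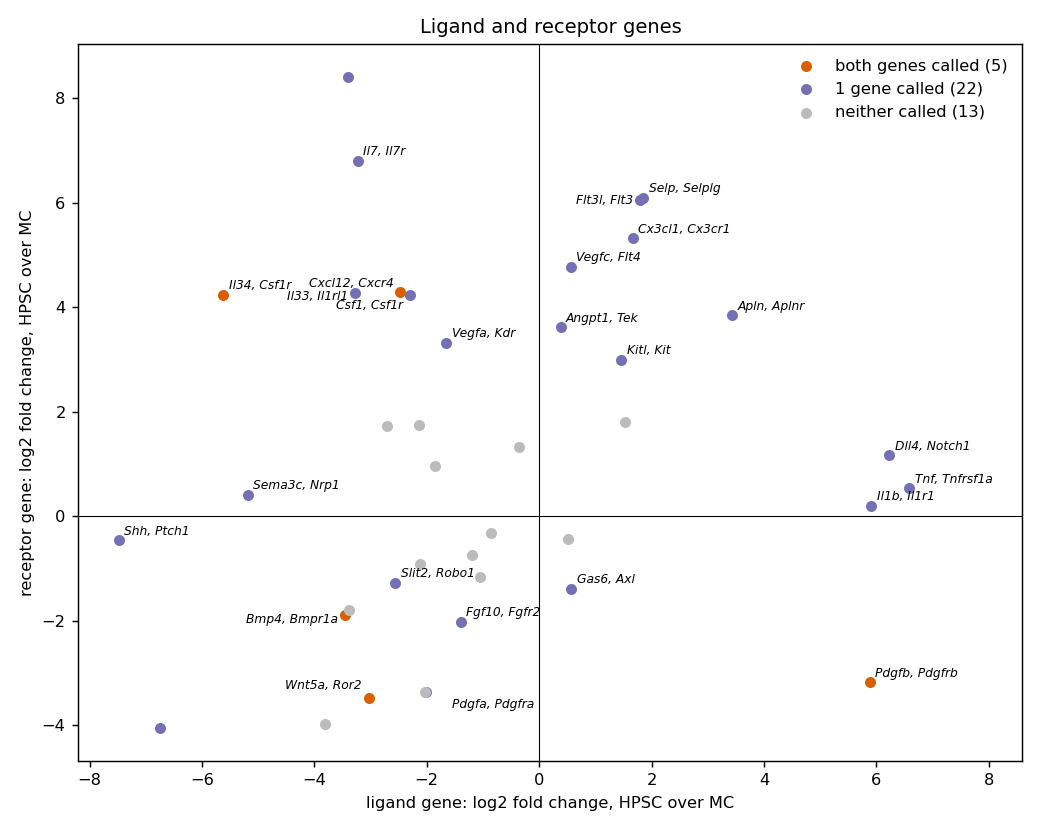
Log2 fold change (HPSC over MC) of the ligand gene on the horizontal axis and of the receptor gene on the vertical axis, with 1 point for each of the 40 pairs whose genes were both tested. Orange marks the 5 pairs with both genes called, violet the 22 with 1 gene called and grey the 13 with neither, and names stand beside all but 2 of the pairs with a call. Called receptors of blood and vessels lie above 0 whatever the sign of their ligand, and at the lower right Pdgfb with Pdgfrb is the pair with both genes called.

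Within single cultures, with 2 libraries a side, fewer genes were called. In fresh cells 115 genes were higher and 29 lower in HPSC (0.709% and 0.179% of those tested, 0.887% in all). In explants 122 were higher and 57 lower (0.752% and 0.351%, 1.1% in all), and in cyclopamine 172 and 106 (1.06% and 0.653%, 1.71% in all). Macrophage and granulocyte genes were higher for 7 of 20 members in fresh cells, 14 in explants and 16 in cyclopamine. Leukocyte signalling genes were higher for 17 of 34 members in fresh cells, 21 in explants and 22 in cyclopamine. Matrix genes were lower for 6 of 38 members in fresh cells, 9 in explants and 12 in cyclopamine. None of these 3 lists had a call in the other direction in any culture. Progenitor surface and cytokine receptor genes, Kit among them, were higher for 8 of 28 members in fresh cells, 8 in explants and 10 in cyclopamine. Pan-endothelial genes, Pecam1 among them, were higher for 5 of 25 members, 9 and 9, in the same order. Most of the remaining lists had few calls or none. Transcription factors of blood were higher for 0 of 26 members in fresh cells, 0 in explants and 1 in cyclopamine, and those of mesenchyme were lower for 0 of 27, 1 and 2, in the same order. Sympathoadrenal, neural crest glia, nephric and both Hedgehog lists had 0 calls in each culture. Whether the difference between HPSC and MC depended on culture was tested by interaction terms, and 0 genes passed for explant against fresh or for cyclopamine against explant (268 and 641 genes at an unadjusted p under 0.05). DESeq2 called 15 and 64 and limma-voom 0 and 0. Both differences shifted with single libraries left out. Without MC fresh negative, the only fresh MC library left was the one with fewest counts. The median difference over all genes for explant against fresh was then -0.44, beside 0.08 with all libraries. Without HPSC cyclopamine positive, the only cyclopamine HPSC library left was the one with fewest counts. The median difference for cyclopamine against explant was then -1.67, beside -0.8 with all libraries. This median also moved to -0.17 without MC cyclopamine negative and to -1.36 without MC cyclopamine positive. Neither of these libraries had the fewest counts of its population, and the causes of the shifts were not tested.

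Among the genes of lowest p for explant against fresh was Gpnmb, a glycoprotein of macrophages. It had 401 and 485 CPM in the explant HPSC libraries and 2.39 and 5.23 CPM in the fresh ones, beside 16.1 and 44.1 CPM in explant MC and 2.47 and 26.6 CPM in fresh MC (difference of log2 fold changes 5.66 ± 1.38 (SE), edgeR adjusted p = 1). The matrix gene Hapln1 went the other way, with 4.69 and 40.3 CPM in explant HPSC and 64.7 and 309 CPM in fresh HPSC, beside 635 and 774 CPM in explant MC and 53.5 and 83.1 CPM in fresh MC (-6.15 ± 1.37). Dcn, Lrrc17, Mocs1 and Zfp36 were the other 4. For cyclopamine against explant, Dnajb4, a heat shock cochaperone, had 0 and 0.0911 CPM in cyclopamine HPSC and 16.1 and 30.2 CPM in explant HPSC, beside 39.6 and 66.6 CPM in cyclopamine MC and 71.8 and 77.2 CPM in explant MC (-8.33 ± 1.66, edgeR adjusted p = 0.892). Bbs4, a cilium gene, had 0.182 and 0.754 CPM in cyclopamine HPSC and 13.8 and 32.3 CPM in explant HPSC, and 48.5 to 71.3 CPM in the 4 MC libraries of those cultures. None of these passed the adjustment, and both cyclopamine HPSC libraries carried the low values, including the one with fewest counts.

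Within BRE-GFP fractions, 269 genes were higher and 113 lower in HPSC among positive cells (1.66% and 0.696%, 2.35% in all), and 251 and 163 among negative cells (1.55% and 1%, 2.55% in all). The median log2 fold change over all genes was -0.22 in positive and -0.69 in negative cells. Pan-endothelial genes were higher for 18 of 25 members in positive and 10 in negative cells, with median log2 fold changes of 6.8 and 2.91. Germ cell genes went the other way, with 0 of 17 higher in positive and 3 in negative cells and medians of 0.8 and 4.17. Leukocyte signalling genes were higher for 25 of 34 members in each fraction. The interaction with fraction was called for 0 genes by edgeR (672 at an unadjusted p under 0.05) and 0 by limma-voom, and for 268 by DESeq2, 233 of them with a more positive difference in BRE-GFP positive cells. Over all genes tested, the median of this difference was also positive, 0.36 by DESeq2 and 0.44 by edgeR. The 6 genes of lowest p were Flt4, Klhl4, Efna1, Nid1, Gja1 and Mest. Flt4, a VEGF receptor of lymphatic and early endothelium, had 427, 195 and 87.1 CPM in the positive HPSC libraries from fresh, explant and cyclopamine tissue, and 0.969, 6.44 and 4.9 CPM in the negative ones. In MC it had 0.588 to 2.09 CPM throughout (difference of log2 fold changes 5.63 ± 0.97 (SE), edgeR adjusted p = 0.528). Klhl4 had 1084, 295 and 216 CPM in the positive HPSC libraries and 13.3, 14.4 and 8.67 CPM in the negative ones, in the same order of cultures, with 4.94 to 26 CPM in MC (5.69 ± 1.09, edgeR adjusted p = 0.725). The positive HPSC libraries were higher in each culture for both genes, and neither passed the adjustment.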

How the data were processed

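RNA-seq libraries of sorted mouse AGM cells, 18 in all, were deposited by the authors as raw read counts per gene symbol. TopHat, Cufflinks, HTSeq and the mm10 build are named, per the submitters' processing notes. The versions, the annotation and the strandedness were not given in the sources used here, and overlapping and antisense genes therefore cannot be separated. Lines that name no gene were left out of totals and tests, 1 class of them being the reads outside annotated genes. Groups were taken from the labels, with 1 library per population, culture and fraction.

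A gene was tested where 3 or more libraries reached 0.796 CPM, which is 10 counts in a library of median size; 16231 of 21881 symbols passed. edgeR 4.0.16 in R 4.3.3 fitted TMM-scaled counts of all 18 libraries with 6 blocks and population, by the quasi-likelihood F test, two-sided, with Benjamini-Hochberg adjustment over all genes tested. Comparisons within a culture or fraction, and interactions, were contrasts of wider models. Totals of 3041249 to 21972063 counts in HPSC and MC set the precision, and intervals and floors cover counting error only. List scores are means of log2 CPM with a prior count of 2, computed here.

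Named genes were called, had a mean of at least 10 CPM in HPSC or MC and the same direction in all 6 blocks, and were the 15 each way of largest fold change and the 5 of lowest p, without predicted genes. For each interaction, the 6 genes of lowest p are named. Some genes, 1 of those chosen by size among them, are not reported here. Members, 31 lists and 43 pairs were chosen with earlier results of these data known. List symbols matched 594 of 598 entries, 8 of them by an older name. Coordinates are GENCODE M21 on GRCm38, for 19570 symbols with 1 gene. Alternatives were other scalings, filters and samples, DESeq2 1.42.0, limma-voom (limma 3.58.1), other blocks, thinned counts, a covariate, and libraries, cultures or fractions left out. The scripts were tested on simulated data.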

Additional observations from a re-analysis of the deposited data

Results flagged for a closer look

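Of 130 groups of 6 values examined for a library far from the other 5, 15 had one. The limit used would flag about 1 in 20 groups of independent, normally distributed values. These groups share libraries and some share genes, so the 15 cannot be read against that rate. On the HPSC side, the cyclopamine negative library, which had the fewest counts, was highest for Cd69 (log2 CPM 8.57, others 5.09 to 6.09) and for Il12a (6.70, others 4.24 to 5.03), and lowest for the mean of immediate early and heat shock genes (2.79, others 4.62 to 5.07). HPSC fresh positive was lowest for Psmb9 (0.57, others 4.33 to 6.20) and for macrophage and granulocyte genes (4.12, others 7.12 to 8.14). HPSC explant positive was highest for Nap1l2 (0.22, others -2.58 to -1.80) and for Hedgehog target genes (2.65, others 1.61 to 1.94).

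On the MC side, the fresh positive library stood apart in 7 measures. It had the fewest genes with a count (12028, others 16842 to 18816) and the lowest means of BMP ligands and antagonists (1.59, others 3.16 to 3.63), of erythroid genes (-0.97, others 4.10 to 6.03), of gonad, adrenal and coelomic epithelium genes (1.07, others 3.46 to 4.18) and of somite, cartilage and muscle genes (1.65, others 3.84 to 4.63). These are means of log2 CPM. Summed levels over the MC libraries spanned 419 to 545 CPM for the BMP list and 226 to 345 CPM for the gonad list. They spanned 587 to 1524 CPM for the somite list. Erythroid sums spanned 496 to 28461 CPM, with the lowest in MC fresh positive. MC fresh positive was highest for Chrna4 (5.59, others 2.56 to 3.34) and Gpr123 (5.77, others 0.73 to 1.97). MC fresh negative was highest for cell cycle genes (7.75, others 6.86 to 7.18).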

How the results depend on the processing

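HPSC and MC libraries were paired by culture and fraction through the blocks, and the labels give no replicate numbers to pair by. Genes called higher and lower in HPSC numbered 665 and 950 with all libraries. They were 1233 and 2349 by DESeq2, 999 and 1884 by limma-voom, and 354 and 164 with the share outside annotated genes as a covariate. Without the fresh, explant or cyclopamine libraries they were 448 and 349, 216 and 112, and 641 and 360. Without the BRE-GFP negative libraries they were 378 and 227, and without the positive ones 180 and 28. Leaving out 1 library gave 454 to 801 higher and 448 to 1087 lower genes. Without HPSC cyclopamine negative and MC fresh positive together, a choice made after seeing the data, they were 671 and 715. Other scalings, filters, blocks, samples in the fit and thinned counts kept both counts within 1.5 times. Higher genes outnumbered lower ones, against the order with all libraries, at 10 CPM (681 and 652) and with no block term (778 and 729), as in the fits named above with the covariate or without a culture or fraction, and without HPSC cyclopamine positive (454 and 448) or MC cyclopamine negative (634 and 595). The interaction with fraction was called for 0 genes, for 268 by DESeq2 and for 0 in each fit with 1 library left out. Explant against fresh gave 0, with 4 without a filter, 15 by DESeq2 and 0 to 28 with 1 library left out. Cyclopamine against explant gave 0, with 64 by DESeq2 and 0 to 547 with 1 library left out. Kitl had a log2 ratio of -0.16 without the BRE-GFP positive libraries and Pou5f1 of -0.17 without the explant libraries, both turned in sign and not called in either case. The causes of these shifts were not tested. The smallest library held 3041249 counts, which limits what can be seen of genes at a few counts.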
